A study of Drosophila melanogaster with 24 samples.

Results

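The mitochondrial ribosomal RNAs of the fly were followed here in sorted clock neurons whose mitochondria had been perturbed by gene editing. They are the rows named lrRNA and srRNA, which are 2 of the 15610 rows of the count table, and both had UMIs (unique molecular identifiers, which mark single captured molecules) in all 24 libraries. Fold changes of lrRNA lay close to those of the mRNAs of mitochondrial DNA, and its level in old Opa1-mut neurons was 0.473 times that of old Cas9 neurons. Fold changes of srRNA lay above those of all 13 mRNAs in 5 of the 6 comparisons of a mutant with Cas9, old Drp1-mut being the other. srRNA was called higher in Marf-mut than in Cas9 neurons at both ages. Each of these calls was kept in only 2 of the 6 fits that left out a library, and the authors' deposited tables make neither. The ratio of lrRNA to srRNA was lower in Marf-mut and in Opa1-mut than in Cas9 neurons.

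lrRNA and srRNA are the RNA cores of the large and the small subunit of the mitochondrial ribosome. That ribosome translates the mRNAs that mitochondrial DNA itself encodes, all of them for parts of the oxidative phosphorylation machinery, while the ribosome's proteins come from nuclear genes. Mitochondrial transcripts of animals are long and are cut apart, largely at the tRNAs that lie between the genes. In the Ensembl annotation of the fly genome (BDGP6.54, the assembly also called dm6), mt:lrRNA (FBgn0013686) lies on the mitochondrial genome at 12735 to 14058 on the minus strand and has 1324 bases. The srRNA gene, mt:srRNA (FBgn0013688), lies at 14131 to 14916 on the same strand and has 786 bases. Each is a single annotated rRNA exon with no coding sequence or UTR. The gene of the valine tRNA lies between them, and beyond lrRNA follow a leucine tRNA and ND1, on the same strand.

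The neurons came from brains of male flies, dissected at ZT14, in the early night of the light cycle. CLK856-Gal4, a driver active in clock neurons, switched on the nuclease Cas9 and eGFP in every group, so the controls carried Cas9 too. Drp1-mut, Marf-mut and Opa1-mut flies also carried a UAS-3XgRNA guide construct against Drp1, Marf or Opa1, and Cas9 flies carried none. Mitochondria are split by Drp1 and fused by Marf, at the outer membrane, and by Opa1, at the inner membrane, so Marf-mut and Opa1-mut are called fusion mutants here. Each genotype was taken old (about 35 days) and young (about 15 days), in 3 libraries of about 1000 GFP-positive cells. All 3 libraries of any group shared 1 cell suspension, made from 80 to 100 brains, so p-values between groups measure the spread among sorted pools and not among flies. RNA was selected by its poly(A) tail before Smart-seq3 cDNA synthesis. An rRNA value is therefore the number of molecules caught that way, and total rRNA was not measured.

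Libraries held 684175 to 2889269 UMIs. Levels are CPM, UMI counts scaled to a common library size with TMM factors. Each comparison used edgeR's quasi-likelihood test over all genes, and "called" means a Benjamini-Hochberg adjusted p under 0.05. The targeted gene was called lower in old Drp1-mut neurons (Drp1, 84.5 ± 16.6 CPM, against 160.0 ± 5.94 in old Cas9 neurons; SD, n = 3) and in old Opa1-mut neurons (Opa1, 93.9 ± 3.11 CPM, against 149.5 ± 2.49). Marf in Marf-mut neurons and all 3 targets in young neurons were not called, and edited mRNA need not fall. Opa1 in young Opa1-mut neurons had a log2 fold change of -0.46 (adjusted p = 0.128). Without young Opa1-mut replicate 2 it was -0.65 and called (adjusted p = 0.0395). The clock markers tim, per, cry, vri, Pdf and Clk and the neuronal markers elav, nSyb, brp and Syt1 had UMIs in all 24 libraries. Glial markers summed to between 225.7 and 490.8 CPM per library, photoreceptor markers to between 9.20 and 116 CPM, markers of fat body and hemocytes to between 7.68 and 124.7 CPM, and muscle markers to between 0 and 19.9 CPM. Some libraries stood apart. Young Opa1-mut replicate 2 held 6911 UMIs of cytosolic rRNA against 947 to 2441 in the other 23, and young Cas9 replicate 1 held 10 UMIs of mitochondrial tRNA against 114 to 371 in the others. Values without these libraries are given beside the calls they touch.

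lrRNA was among the most abundant RNAs in these neurons. It was the row with the most UMIs in 17 of the 24 libraries and never ranked below place 4, with 14368 to 49121 UMIs. srRNA had 96 to 1709 UMIs and ranked between places 119 and 3740. The lowest srRNA count, 96 UMIs in young Cas9 replicate 1, has an exact Poisson 95% interval of 77.8 to 117 UMIs and the highest, 1709 in young Opa1-mut replicate 2, one of 1629 to 1792, for counting error only. The lowest lrRNA count, in old Opa1-mut replicate 2, was 0.978% of that library's UMIs (exact Clopper-Pearson 95% interval 0.962% to 0.994%), and the highest, in young Drp1-mut replicate 2, was 2.92% (2.898% to 2.949%). An assembled mitochondrial ribosome holds both in equal number. Here lrRNA UMIs exceeded srRNA UMIs by 15.5 to 327 times. Divided by annotated length the excess was 9.20 to 194 times, with a median of 75.5. UMIs mark molecules and not bases, so the undivided ratio is the one that counts molecules caught.

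lrRNA levels of the old mutants lay on both sides of old Cas9. Drp1-mut neurons held 23307, 34563 and 33328 CPM of lrRNA, against 20834, 20489 and 22245 in Cas9 neurons. Marf-mut neurons held 16351, 14093 and 11995 CPM, and Opa1-mut neurons 12582, 9730.2 and 7997. All 3 Drp1-mut libraries lay above the Cas9 libraries and all 6 Marf-mut and Opa1-mut libraries lay below them. In bulk pools, fewer cells with a given RNA and less of it per cell cannot be told apart. Only the Opa1-mut difference was called, a log2 fold change of -1.08 (SE 0.146, adjusted p = 0.000927), where 13.2% of the genes tested were called. A single fit of all 24 libraries lost that call (adjusted p = 0.0785). In the authors' deposited table the log2 fold change is -1.08 with an adjusted p of 1.49e-05. lrRNA in old Marf-mut neurons had a log2 fold change of -0.60 (SE 0.131, adjusted p = 0.102), with 4.58% of genes called, and in old Drp1-mut neurons one of 0.54 (SE 0.177, adjusted p = 0.602), with 0.394% called. Calls of those 2 differences varied between fits. With DESeq2 on the same 6 libraries both were called (adjusted p = 7.89e-08 and 0.00348), and in the authors' deposited table, which is also from DESeq2, neither is (adjusted p of 0.130 and 0.498). By edgeR both were called with a replicate block, and the Marf-mut difference also without a filter on low counts. In old Opa1-mut neurons the neuronal markers Syt1 (log2 fold change -0.39) and brp (-0.32) were also called lower, 2 of 4 tested. The 4 markers summed to between 1768 and 1839.6 CPM, against 2074 to 2428 CPM in old Cas9. Clock markers went the other way, with a median sum of 21078 CPM (14428 to 21791), against 12636 CPM (12434 to 14444) in old Cas9. DESeq2 called 1 neuronal marker lower and 1 clock marker higher. The part of these markers in the lrRNA difference was not tested.

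**Figure D1:**
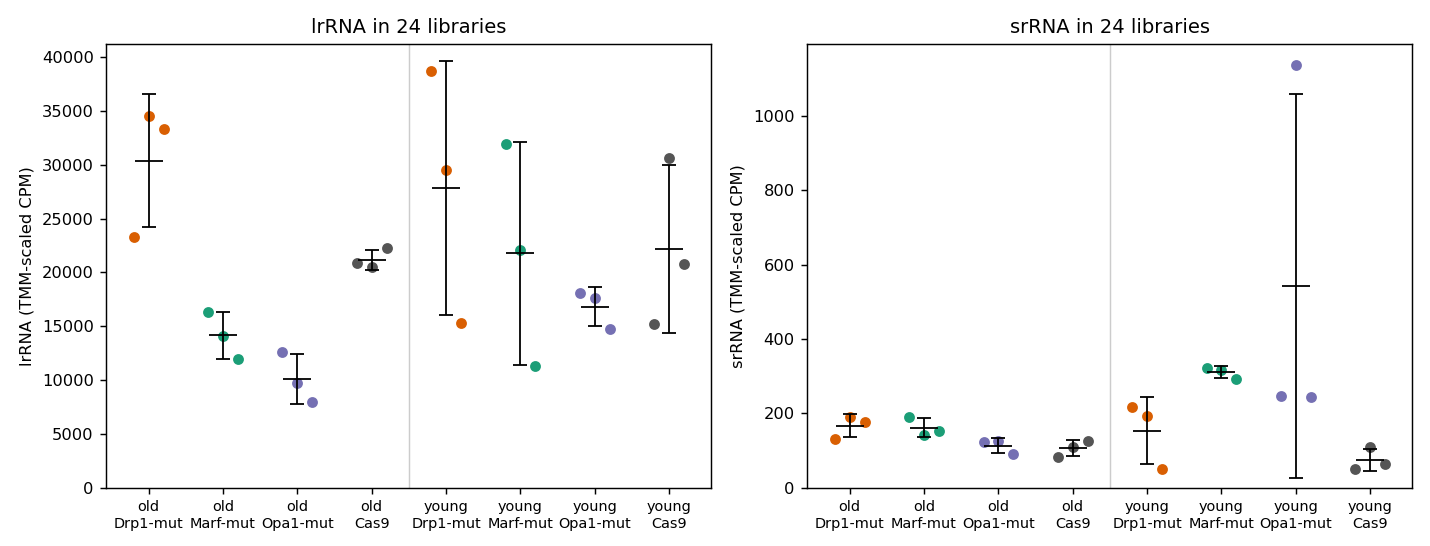
TMM-scaled CPM of lrRNA (left) and srRNA (right) in each of the 24 libraries, by group; dots are libraries, bars the mean and SD of 3. lrRNA of old Marf-mut and old Opa1-mut libraries lies below old Cas9 with no overlap, and srRNA of young Marf-mut and young Opa1-mut libraries lies above young Cas9 with no overlap.

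In young neurons no lrRNA difference was called. Young Drp1-mut libraries held 38712, 29488 and 15269 CPM, young Marf-mut libraries 31949, 22094 and 11270.0, and young Opa1-mut libraries 18135, 17637 and 14729.8, against 15255, 30651 and 20740.3 in young Cas9. Every young mutant overlapped Cas9. The log2 fold changes were 0.35 (SE 0.449) in Drp1-mut, -0.01 (SE 0.371) in Marf-mut and -0.37 (SE 0.231) in Opa1-mut neurons, with adjusted p of 0.999, 0.998 and 0.431. Among all genes, 0.0831%, 0.346% and 2.94% were called in these comparisons.

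Raw counts of lrRNA had a gap. Sorted by raw count, the 24 libraries fell into 18 with 14368 to 28769 lrRNA UMIs and 6 with 45739 to 49121, with none between. The upper 6 were all young: 3 of 3 Drp1-mut, 1 of 3 Marf-mut, 0 of 3 Opa1-mut and 2 of 3 Cas9 libraries. The step between neighbours was 1.59-fold. Among the 13 mitochondrial mRNAs, the widest step was 1.63-fold, in ND2, with 1 library below it, and the widest with more than 1 library on each side was 1.39-fold, in ND1. The upper 6 libraries spanned 1318960 to 2889269 UMIs in depth. UMIs that share a sequence are counted as a single molecule, and the UMI length is not given in the sources used here. If it were 8 random bases, as in the published Smart-seq3 protocol, 65536 sequences would exist, and the upper libraries would have used 69.8% to 74.95% of them and the others 21.9% to 43.9%. Whether this limit shaped the counts was not tested, but correcting for it under that assumption made or lost no call of lrRNA or srRNA.

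The ratio of both rRNAs together to the sum of the 13 mitochondrial mRNAs rests nearly all on lrRNA and says little of srRNA. It was 0.338 to 0.454 in the 18 libraries below the gap (median 0.410), over a range of 32090 to 83033 mRNA UMIs, and 0.398 to 0.640 in the 6 above it (median 0.502). It was not called different from Cas9 in any genotype: the mean log2 differences, averaged over both ages, were -0.08 in Drp1-mut, 0.02 in Marf-mut and 0.01 in Opa1-mut neurons (exact stratified permutation tests, two-sided, adjusted p = 0.68, 0.95 and 0.95 over 8 tests). Old and young libraries differed by a mean log2 of -0.16 (adjusted p = 0.176), and without young Cas9 replicate 1 by -0.21 (adjusted p = 0.0218).

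**Figure D2:**
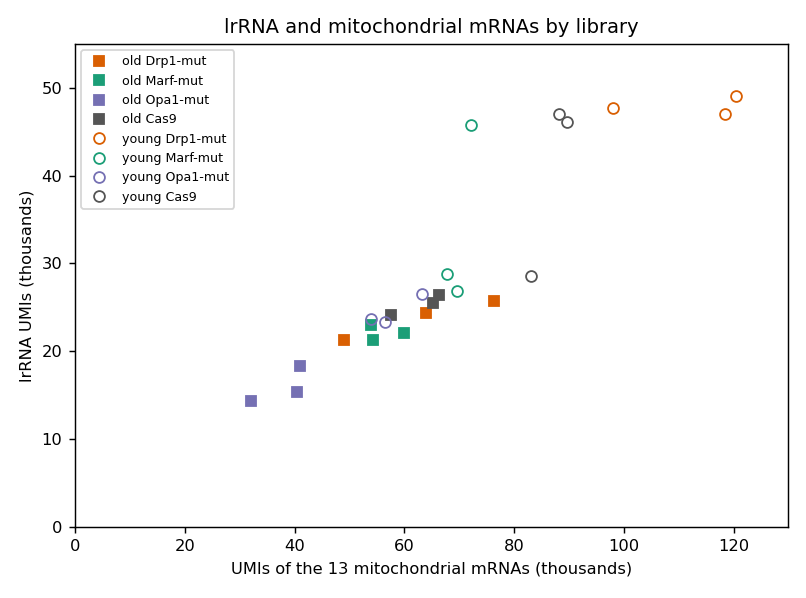
lrRNA UMIs (vertical axis, in units of 1000) against the summed UMIs of the 13 mitochondrial mRNAs (horizontal axis, in units of 1000) in each of the 24 libraries. The 12 old libraries (filled squares) and 6 young ones (open circles) lie along a band up to 28769 lrRNA UMIs, and the other 6 young libraries lie apart at 45739 or more.

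The mean level of srRNA lay above that of Cas9 in every mutant at both ages, and farthest above it in the young fusion mutants. Young Marf-mut libraries held 323, 316 and 293 CPM of srRNA and young Opa1-mut libraries 246, 1138 and 244, against 51.3, 109.5 and 63.5 CPM in young Cas9. All 6 fusion-mutant libraries lay above all 3 Cas9 libraries. The Marf-mut difference was called, with a log2 fold change of 2.09 (SE 0.251, adjusted p = 0.0181), or 4.26-fold. It was called in 2 of the 6 fits that left out a library, those without Cas9 replicate 1 (log2 fold change 1.87, adjusted p = 0.00788) and replicate 2, while the other 4 gave 1.97 to 2.13 and adjusted p of 0.0754 to 0.114. In the same comparison the clock marker cry was called lower (log2 fold change -0.64, 1 of 6 clock markers tested; adjusted p = 0.0327, and 0.120 without young Cas9 replicate 1), and clock markers summed to between 7210 and 10100.4 CPM in young Marf-mut, against 9153 to 16110.1 CPM in young Cas9. The part of this in the srRNA difference was not tested. The fits with thinned counts, with depth as a covariate, of the 12 young and of all 24 libraries also lost the call, at log2 fold changes of 2.001 to 2.122. In the authors' deposited table the log2 fold change is 2.06 with an adjusted p of 0.184. The Opa1-mut difference of 2.92 (SE 0.911) was not called (adjusted p = 0.224) and rested partly on replicate 2. Without that library it was 1.75 (adjusted p = 0.0650). In the authors' deposited table it is 2.89 with an adjusted p of 0.00571, and DESeq2 also called it here (adjusted p = 0.0133). Between young Opa1-mut and young Cas9 the clock marker vri (0.45) and the glial marker Indy (1.62) were called higher by edgeR. The glial markers alrm (-0.89) and Gat (-0.99) were called lower. Without young Opa1-mut replicate 2 all of these calls were lost (adjusted p of 0.0509 to 0.125). Their part in the Opa1-mut srRNA difference was not tested.

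Young Drp1-mut srRNA, at 217, 193 and 51.3 CPM, straddled the Cas9 libraries, and its log2 fold change of 1.06 (SE 0.701, adjusted p = 0.996) was not called. In old neurons the differences were smaller. Old Marf-mut libraries held 190.2, 141 and 153 CPM of srRNA, old Drp1-mut libraries 131, 190.1 and 177 and old Opa1-mut libraries 124, 126 and 89.8, against 82.7, 109 and 125 in old Cas9. Marf-mut and Drp1-mut libraries lay above Cas9 without overlap, and Opa1-mut libraries overlapped it. Only Marf-mut was called, at a log2 fold change of 0.59 (SE 0.150, adjusted p = 0.0263), against 0.66 (SE 0.180, adjusted p = 0.188) in Drp1-mut and 0.09 (SE 0.165, adjusted p = 0.803) in Opa1-mut neurons. The old Marf-mut call was lost in 4 of 6 fits without a library, with adjusted p of 0.0632 to 0.174, and with DESeq2 (adjusted p = 0.0634), and in the fits of the 12 old and of all 24 libraries. In the authors' deposited table its log2 fold change is 0.58 with an adjusted p of 0.124. In old Marf-mut neurons 1 of 6 clock markers, tim, was called lower (-0.53), while DESeq2 called 1 clock marker higher and 1 lower. Clock markers summed to between 15465 and 19745 CPM there, against 12434 to 14444 CPM in old Cas9. Of the markers tested, 1 of 6 glial and 1 of 1 photoreceptor markers were called higher. Glial markers summed to between 368 and 491 CPM there, against 234.0 to 365 in old Cas9. The part of these markers in the srRNA difference was not tested.

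Ribosomal RNA of the cytosol, which like srRNA was caught through poly(A) selection, had its own pattern over the groups. It was summed over the 27 rows of nuclear rRNA genes and pseudogenes, whose shared reads cannot be assigned with certainty. In young Opa1-mut neurons it stood at 1084, 4602 and 950.1 CPM, with the 4602 in the library of the highest srRNA, against 578, 1019 and 703 in young Cas9. In young Marf-mut neurons it was 780.2, 910.1 and 964.5 CPM, within the Cas9 range. Of the rows tested, 1 of 10 was called in young Opa1-mut neurons, the precursor row pre-rRNA:CR45846, which was lower (log2 fold change -0.98), and 1 of 9 in young Marf-mut neurons, the pseudogene 28SrRNA-Psi:CR40741, which was higher (2.71). Without young Cas9 replicate 1 both calls were lost (-0.70 and 2.41, adjusted p = 0.144 and 0.119), and without young Opa1-mut replicate 2 pre-rRNA:CR45846 was at -1.18 and still called (adjusted p = 0.0374). Other rows gained a call as higher in young Opa1-mut neurons. These were 28SrRNA-Psi:CR40741 without young Opa1-mut replicate 2 (2.54, adjusted p = 0.0430, against 3.76 with it) and 5.8SrRNA-Psi:CR45863 without young Cas9 replicate 1 (1.28, adjusted p = 0.0150, against 1.87 with it). In old Marf-mut and old Opa1-mut neurons the sum of cytosolic rRNA was lower than in old Cas9, at 692 to 760.0 and 515 to 672 CPM, against 1606 to 2246 CPM. There, 5 of 10 and 6 of 10 rows tested were called lower, where 4.58% and 13.2% of all genes were called. srRNA averaged 161 and 113 CPM there, against 106 CPM in old Cas9. The part of cytosolic rRNA in the srRNA values was not tested. Of the 6522 genes averaging at least 20 UMIs, 18SrRNA-Psi:CR41602, an 18S rRNA pseudogene, had the profile most like that of srRNA (r = 0.78 over 24 libraries, and 0.87 for deviations from the group means), and these libraries share suspensions and depth. Next over libraries came CG6409, CLIP-190, BomT2 and Obp19d, with r from 0.74 to 0.78. The pseudogene 18SrRNA-Psi:CR41602 held 2211 UMIs in young Opa1-mut replicate 2, the library of the highest srRNA, and at most 565 in any other. Its r without that library was not computed.

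**Figure D3:**
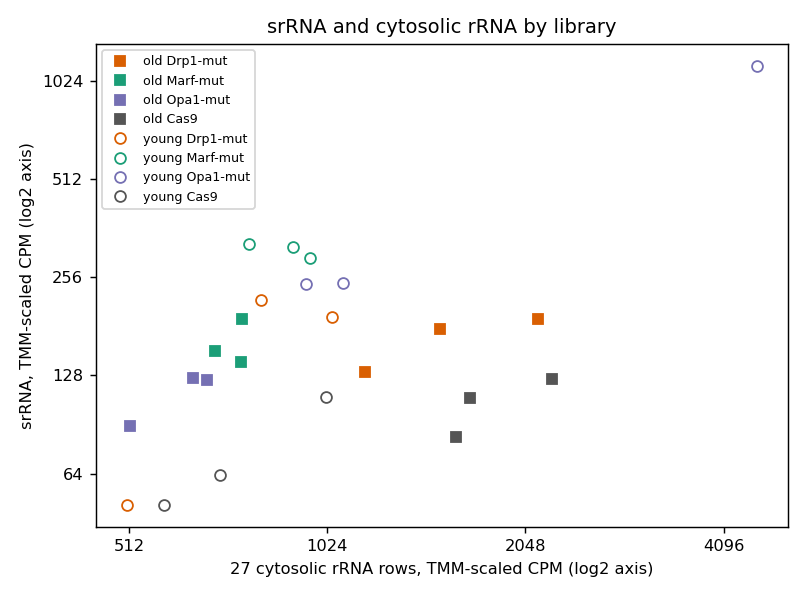
srRNA (vertical axis) against the sum of 27 cytosolic rRNA rows (horizontal axis) in each of the 24 libraries, both in TMM-scaled CPM on log2 axes. Young Opa1-mut replicate 2 lies at the upper right at 1138 and 4602 CPM, while old Cas9 libraries hold 1606 to 2246 CPM of cytosolic rRNA at 82.7 to 125 CPM of srRNA.

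The ratio of lrRNA to srRNA within a library does not depend on how libraries are scaled. In old neurons it was 86.0, 99.9 and 78.6 in Marf-mut, 101, 77.2 and 89.0 in Opa1-mut and 177, 182 and 188 in Drp1-mut libraries, against 252, 188 and 178 in Cas9. In young neurons it was 98.8, 69.8 and 38.4 in Marf-mut, 73.8, 15.5 and 60.4 in Opa1-mut and 178, 153 and 297.5 in Drp1-mut libraries, against 297, 279.8 and 327 in Cas9. The 12 libraries of both fusion mutants (15.5 to 101) lay below all 12 libraries of Drp1-mut and Cas9 (153 to 327). Averaged over both ages the log2 ratio differed from Cas9 by -1.72 in Marf-mut and by -2.04 in Opa1-mut neurons (exact stratified permutation tests, two-sided, p = 0.005 each, the smallest that the 400 arrangements allow; adjusted p = 0.02 over 8 tests). Within an age the Marf-mut difference was -1.21 in old and -2.23 in young neurons, and the Opa1-mut difference -1.20 in old and -2.87 in young neurons. In Drp1-mut neurons the difference was -0.37 (exact stratified permutation test, adjusted p = 0.2). Over the 12 sets that left out a library the difference was -1.87 to -1.53 in Marf-mut and -2.25 to -1.68 in Opa1-mut neurons. The fusion-mutant and Cas9 libraries did not overlap at either age, so leaving out a library could not undo these calls.

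**Figure D4:**
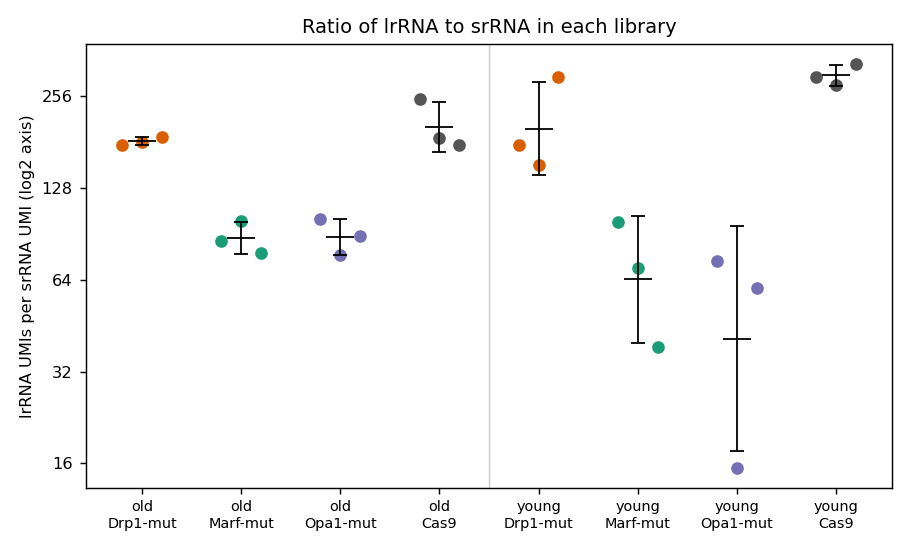
lrRNA UMIs per srRNA UMI in each library on a log2 axis, by group; bars are the mean and SD of the log2 ratio over 3 libraries. All Marf-mut and Opa1-mut libraries lie at 101 or lower and all Drp1-mut and Cas9 libraries at 153 or higher.

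The ratio of lrRNA to srRNA was also taken on counts summed per suspension. Such a ratio lies within the range of its 3 libraries, so both fusion mutants had to lie below Drp1-mut and Cas9. The ratio was 87.4 and 64.4 in old and young Marf-mut, 89.1 and 30.4 in old and young Opa1-mut, and 182 and 193 in old and young Drp1-mut suspensions, against 202 and 300.3 in old and young Cas9. These 8 ratios were not tested. The srRNA count relative to the 13 mitochondrial mRNAs split the libraries likewise: it was 0.00369 to 0.0270 in the 12 fusion-mutant libraries and 0.00116 to 0.00273 in the 12 others.

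The 13 mRNAs of mitochondrial DNA give the setting for both rRNAs. In old Opa1-mut neurons 13 of 13 were called lower, with a median log2 fold change of -1.20, from -1.54 in ND3, a subunit of respiratory complex I, to -1.003 in COX1, the catalytic subunit of cytochrome oxidase. In old Marf-mut neurons 11 of 13 were called lower (median -0.57), among them ATP8 at -0.91 (SE 0.0879, adjusted p = 2.89e-05), a subunit of the ATP synthase. In old Drp1-mut neurons 12 of 13 were called higher (median 0.64), among them ND5 at 0.70 (SE 0.0873, adjusted p = 8.06e-05). The log2 fold changes of lrRNA lay near these medians, at -1.08, -0.60 and 0.54. srRNA, at 0.09, 0.59 and 0.66, lay close to the mRNA median in Drp1-mut neurons and above it in the other two. Over all genes the median log2 fold change was 0.00 in Drp1-mut, 0.01 in Marf-mut and 0.00 in Opa1-mut neurons. The shares of all genes called were 0.394% in old Drp1-mut, 4.58% in old Marf-mut and 13.2% in old Opa1-mut neurons. In young neurons no mitochondrial mRNA was called by edgeR in any mutant (1, 0 and 1 of 13 had an unadjusted p under 0.05 in Drp1-mut, Marf-mut and Opa1-mut neurons), and none by DESeq2, with medians of 0.48 in Drp1-mut, -0.07 in Marf-mut and -0.22 in Opa1-mut neurons. On counts summed per suspension none of the 13 was called by edgeR or DESeq2 in any mutant (0, 0 and 2 had an unadjusted p under 0.05 by edgeR), with medians of 0.49 in Drp1-mut, -0.39 in Marf-mut and -0.68 in Opa1-mut neurons.

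**Figure D5:**
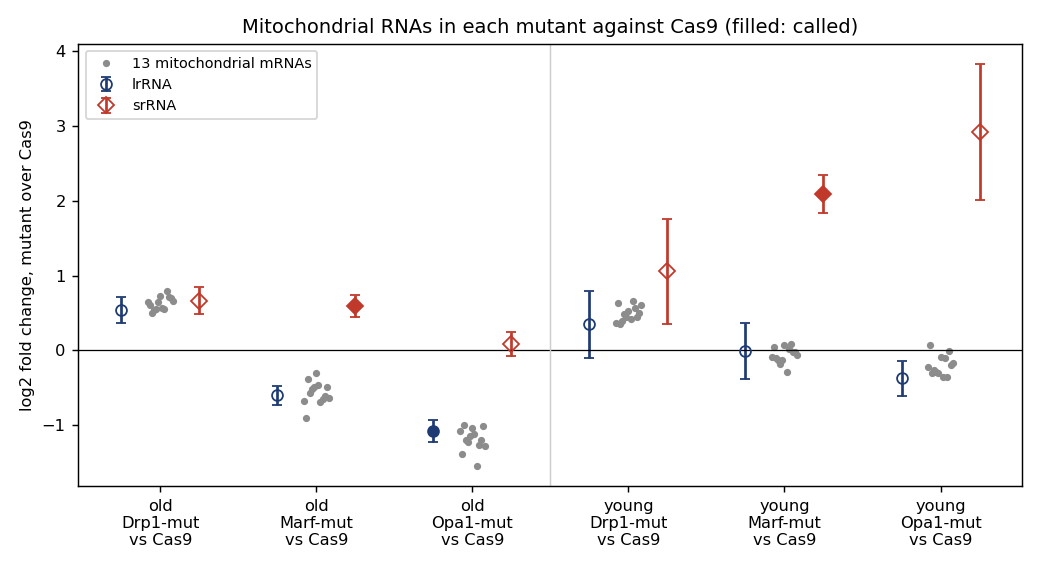
Log2 fold changes of each mutant over Cas9 at each age for lrRNA (circles), srRNA (diamonds) and the 13 mitochondrial mRNAs (grey dots); bars are standard errors, filled symbols are called. lrRNA lies near the mRNAs in every comparison, and srRNA lies above all of them in 5 of 6 comparisons and among them in old Drp1-mut neurons.

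Likeness over the libraries showed the same contrast. The 5 genes most like lrRNA among 6522 were COX2, ND4, ND5, COX1 and COX3, with r from 0.94 to 0.95 over 24 libraries, and srRNA came at place 1540 with r = 0.18. For deviations from the group means the closest were ND5 and ATP8, with r = 0.92, followed by CG9034, COX8 and CG7630, the last at r = 0.90, and srRNA came at place 412 with r = 0.58. These correlations describe libraries that share suspensions and depth.

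Nuclear genes that build or serve the mitochondrial ribosome were read against the background of all genes. Shares of all genes called were 4.58% in old Marf-mut, 13.2% in old Opa1-mut and 2.94% in young Opa1-mut neurons. Of 46 large-subunit protein genes (mRpL), 2 were called lower in old Marf-mut neurons, mRpL33 and mRpL34, and 1 in old Opa1-mut neurons, mRpL36, at a log2 fold change of -0.49. In young Opa1-mut neurons mRpL33 and mRpL42 were called higher and mRpL15 lower, of which mRpL15 lost its call without young Opa1-mut replicate 2 or young Cas9 replicate 1 (adjusted p = 0.0956 and 0.118), and no member was called by edgeR or DESeq2 in Drp1-mut or young Marf-mut neurons (at most 4 had an unadjusted edgeR p under 0.05). Of 26 small-subunit protein genes (mRpS), 1 was called lower in old Marf-mut and 3 in old Opa1-mut neurons. mRpS21 was lower in both, at -0.69 and -0.89, and mRpS33 and mRpS18C in Opa1-mut neurons. The medians of both lists lay between -0.14 and 0.06 in the 6 comparisons. Of 9 factors for mitochondrial DNA upkeep and transcription in the table, mtSSB, the single-strand binding protein, and mtDNA-helicase were called higher in old Opa1-mut neurons (log2 fold changes 0.83 and 1.39, adjusted p = 0.000306 and 0.0388). TFAM, mTTF and the RNA polymerase mtRNApol were not called in any mutant. Of 10 factors for mitochondrial RNA processing and stability none was called by edgeR or DESeq2 in any mutant against Cas9, with at most 3 of 9 tested at an unadjusted edgeR p under 0.05, in old Opa1-mut neurons. Mitochondrial tRNAs were sparse, at 10 to 371 UMIs in all per library. In old Opa1-mut neurons 3 of 4 tested were called lower, trnP, trnG and trnH, at -2.16, -1.73 and -1.50, and in young Opa1-mut neurons 1 of 3 was called higher, trnC. The trnC call was lost without young Cas9 replicate 1, the library with 10 tRNA UMIs (log2 fold change 1.84, against 2.35 with it, adjusted p = 0.0508), and without young Opa1-mut replicate 2 (2.28, adjusted p = 0.0687). No tRNA was called against Cas9 by edgeR in Drp1-mut or Marf-mut neurons, where between 1 and 3 had an unadjusted p under 0.05 in each comparison, and DESeq2 called 1, in young Marf-mut neurons.

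Age was compared within each genotype. In Marf-mut neurons srRNA fell to 161 ± 25.7 CPM in old, against 311 ± 15.8 in young neurons (SD, n = 3), a log2 fold change of -0.95 (SE 0.115, adjusted p = 0.000175) that was called in all 6 fits without a library and not in a fit of all 24 libraries (adjusted p = 0.478). There, 3.39% of genes were called. In Opa1-mut neurons lrRNA fell to 10103 ± 2315 CPM in old, against 16834 ± 1839 in young neurons, a log2 fold change of -0.74 (SE 0.171, adjusted p = 0.0289), with 12.4% of genes called. This call was kept in 3 of 6 fits without a library (adjusted p up to 0.0891), and 9 of 13 mitochondrial mRNAs were called lower beside it (median -0.78). srRNA in Opa1-mut neurons had a log2 fold change of -2.28 (SE 0.841, adjusted p = 0.195), and without young replicate 2 of -1.12 with an adjusted p of 8.56e-06. lrRNA in Marf-mut neurons, at -0.63 (SE 0.315, adjusted p = 0.361), was not called.

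In Cas9 neurons neither rRNA was called between ages, where 2.45% of genes were. lrRNA averaged 21189 ± 931 CPM in old and 22215 ± 7804 in young Cas9 neurons, and srRNA 106 ± 21.4 and 74.8 ± 30.7. The log2 fold changes were -0.02 (SE 0.217, adjusted p = 0.974) and 0.56 (SE 0.300, adjusted p = 0.424). In Drp1-mut neurons, with 0.705% of genes called, lrRNA averaged 30399.6 ± 6173 CPM in old and 27823 ± 11810.0 in young neurons, and srRNA 166 ± 30.8 and 154 ± 89.6. Those log2 fold changes, 0.15 (SE 0.395) and 0.15 (SE 0.635), were not called, while with log2 depth as a covariate lrRNA turned to -1.01 and was called (adjusted p = 0.0340). Marker levels differed between ages as well: 2 glial markers were called higher in old Marf-mut and 2 in old Opa1-mut neurons. The neuronal marker brp was called lower in old Opa1-mut neurons (log2 fold change -0.29), but not without young Opa1-mut replicate 2 (adjusted p = 0.0534). Among clock markers, cry was called higher (0.56) and per lower (-0.56) in old Opa1-mut neurons, and Clk was called higher (1.01) in old Cas9 neurons. In Marf-mut neurons clock markers summed to between 15465 and 19745 CPM in old, against 7210 to 10100.4 CPM in young neurons. There DESeq2 called 1 clock marker higher and 0 lower. The part of these markers in the age differences was not tested.

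Whether a mutant effect differed between the ages was tested with an interaction term, and edgeR called none of the 6 (3 mutants, 2 rRNAs). For srRNA the old minus young difference of effects was -1.50 (SE 0.346, adjusted p = 0.156) in Marf-mut and -2.83 (SE 0.962, adjusted p = 0.144) in Opa1-mut neurons. Without young Opa1-mut replicate 2 the Opa1-mut value was -1.67 (adjusted p = 0.0559). Both of these interactions, and no other of the 6, passed 0.05 before adjustment. DESeq2 called both (adjusted p = 0.0343 and 0.0235). For lrRNA it was -0.59 (SE 0.491, adjusted p = 0.747) in Marf-mut and -0.71 (SE 0.360, adjusted p = 0.314) in Opa1-mut neurons. In Drp1-mut neurons it was 0.18 (SE 0.438) for lrRNA and -0.39 (SE 0.772) for srRNA. Of all genes, 0.284% were called in the Marf-mut, 5.63% in the Opa1-mut and 0% in the Drp1-mut interaction, where 260 genes had an unadjusted p under 0.05 and DESeq2 called 3. Beside them, 11 of 13 mitochondrial mRNAs were called in the Opa1-mut interaction (median -0.93), and 9 without young Opa1-mut replicate 2 and 7 without young Cas9 replicate 1.

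On counts summed per suspension, which leaves 8 values and 3 residual degrees of freedom, neither rRNA was called in any of the 4 comparisons by edgeR or DESeq2, and 0 of the 8 edgeR tests passed 0.05 before adjustment. lrRNA in Opa1-mut against Cas9 came nearest, with a log2 fold change of -0.71 (SE 0.279, adjusted p = 0.419), where 0.609% of genes were called. In Marf-mut against Cas9, with 0.103% called, the log2 fold changes were -0.36 (SE 0.277) for lrRNA and 1.29 (SE 0.920) for srRNA. In Drp1-mut against Cas9, with 0.138% called, they were 0.34 (SE 0.276) and 0.68 (SE 0.929). For srRNA in Opa1-mut suspensions the log2 fold change was 1.69 (SE 0.948, adjusted p = 0.602), and 0.94 (adjusted p = 0.625) without young Opa1-mut replicate 2 in the sums. Without a whole suspension it lay between 0.37, without young Opa1-mut, and 2.63, without old Opa1-mut. The Marf-mut value for srRNA lay between 0.57, without young Cas9, and 2.12, without old Cas9. Old against young, with 3.72% called, gave -0.23 (SE 0.197) for lrRNA and -0.59 (SE 0.667) for srRNA.

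Among libraries of a group, both rRNAs varied more than most genes did. Their biological coefficient of variation in a fit of all 24 libraries was 30.2% for lrRNA and 45.05% for srRNA, higher than in 90.4% and 96.3% of 7670 genes. The 13 mitochondrial mRNAs had 17.2% to 26.6%. Ordered by mean, lrRNA ran from old Drp1-mut over young Drp1-mut, young Cas9, young Marf-mut, old Cas9, young Opa1-mut and old Marf-mut to old Opa1-mut. Neighbours in that order overlapped except old Cas9 and young Opa1-mut. For srRNA the order was young Opa1-mut (543 ± 516 CPM), young Marf-mut, old Drp1-mut, old Marf-mut, young Drp1-mut, old Opa1-mut (113 ± 20.3), old Cas9 and young Cas9, and only young Marf-mut and old Drp1-mut did not overlap as neighbours.

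Depth was set beside the levels. In 6 of 8 groups the deepest library had the lowest CPM of lrRNA, and in 6 of 8 the lowest CPM of srRNA, which was not tested. Over the 8 suspensions no relation of level to depth was called: r was -0.35 for lrRNA and -0.15 for srRNA (exact permutation p = 0.386 and 0.708, adjusted p = 0.708 for both), and Spearman's rho was 0.00 and -0.29 (exact permutation p = 1 and 0.501). Without old Drp1-mut and old Cas9, the suspensions farthest from the median depth, r was 0.60 (exact permutation p = 0.207) and -0.72 (exact permutation p = 0.107). Fits with log2 depth as a covariate are among the alternatives.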

How the data were processed

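The members and gene lists were chosen with earlier results of these data known, and the mitochondrial tRNA list after the table was seen. The deposited table holds whole UMI counts per gene, not normalized, and STAR and the build dm6 were used by the authors, per the submitters' processing notes. Not given in the sources used here are the version, UMI length, counting program and annotation, and how reads shared with copies of mitochondrial DNA were counted. The authors' deposited tables give log2 fold changes, with p-values and adjusted p-values from DESeq2, per the file headers. Their other columns, such as the standard error, are treated as a score, per the file headers.

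Counts were tested in R 4.3.3 with edgeR 4.0.16 (quasi-likelihood F test, TMM, filterByExpr by group, robust dispersions, Benjamini-Hochberg over all genes), each comparison on its own 6 libraries, interactions on 12, suspension sums with genotype and age as terms. SE is the log2 fold change over the square root of F. CPM are TMM-scaled, with factors of 0.919 to 1.13. Ratios used exact stratified permutation tests (scipy). The tests were checked on simulated data. Intervals have 95% confidence and cover counting error only.

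Named genes are both members everywhere, mitochondrial mRNAs as a list with examples, the 5 genes most like each member with a mean of at least 20 UMIs, and up to 4 called members of each list and comparison. The lists cover mitochondrial mRNAs and tRNAs, mitochondrial ribosomal proteins, factors for mitochondrial transcription and for RNA processing, cytosolic rRNA, the targets, and markers of clock neurons, neurons, glia, photoreceptors, fat body and hemocytes, and muscle. Alternatives were DESeq2 1.42.0 as test and as size factors, total count scaling, nuclear gene scaling, no filter on low counts, thinning to equal depth, log2 depth as a covariate, a replicate block, all 24 libraries in 1 fit, and leaving out each library or suspension; 12 libraries of an age in 1 fit, a UMI collision correction, and list genes and suspension sums without each of 2 libraries that stand apart were chosen after seeing the data.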

Additional observations from a re-analysis of the deposited data

How the results depend on the processing

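Values are log2 fold changes or log2 differences, in the order lrRNA, srRNA where both are given. For old Drp1-mut against Cas9, calls appeared without a filter on low counts (srRNA 0.64), with DESeq2 (lrRNA 0.54) and with a replicate block (0.52 and 0.68). For old Marf-mut against Cas9, lrRNA became called without the filter (-0.60), with DESeq2 (-0.61) and with the replicate block (-0.62), and srRNA lost its call with DESeq2 (0.58), the replicate block (0.59) and the fits of all 24 (0.60) and of 12 libraries (0.59). For old Opa1-mut, lrRNA lost its call with the replicate block (-1.10) and in the fit of 24 (-1.08). For young Marf-mut, srRNA lost its call after thinning (2.12), with depth as a covariate (2.001) and in the fits of 24 (2.09) and 12 libraries (2.08), and lrRNA turned positive after thinning (0.0020). For young Opa1-mut, srRNA was called with DESeq2 (2.89) and in the fit of 24 (2.92). Between ages, depth as a covariate turned Drp1-mut to -1.01, which was called (adjusted p = 0.0340), and -1.43 and Cas9 srRNA to -0.42, and took the call from Opa1-mut lrRNA (-0.54). Opa1-mut lrRNA also lost it with total counts (-0.77), without the filter (-0.74) and in the fit of 24 (-0.75), Marf-mut srRNA in the fit of 24 (-0.94), and Opa1-mut srRNA gained one with DESeq2 (-2.28) and in the fit of 24 (-2.29). The replicate block gave 0.042 for lrRNA in Cas9, and the UMI collision correction -0.39 for lrRNA in Drp1-mut. Among interactions, Marf-mut srRNA was called with total counts (-1.44), without the filter (-1.48) and with DESeq2 (-1.49), and Opa1-mut srRNA with DESeq2 (-2.82), while depth as a covariate turned lrRNA to -0.36 in Drp1-mut, 0.33 in Marf-mut and 0.095 in Opa1-mut. The cause of these changes was not tested. All other alternatives to the results above, 293 of 332 values, kept direction and call, and the replicate block changed no other call. Counts of called genes by DESeq2 and edgeR differed by more than 1.5 times in 9 comparisons with calls by both: 548 and 939 in old Opa1-mut against Cas9, 17 and 6 in Drp1-mut, 75 and 25 in Marf-mut and 351 and 211 in Opa1-mut against Cas9 when young, 137 and 49 between ages in Drp1-mut, 47 and 21 in the Marf-mut interaction, and 24 and 12, 48 and 9, and 99 and 53 on the suspension sums of Drp1-mut, Marf-mut and Opa1-mut. Replicate numbers do not pair libraries: same-numbered deviations correlated at -0.21 to 0.19, and in 0 of 10 comparisons were all 3 over 0.1. Total counts in place of TMM moved fold changes by -0.09 to 0.07 and kept the sign of the mRNA median in 10 of 10 comparisons.

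Leaving out 1 library at a time gave ranges of 0.43 to 0.70 and 0.50 to 0.82 in old Drp1-mut against Cas9 (both called without Drp1-mut replicate 1), -0.72 to -0.49 (called without Marf-mut replicates 1 and 3) and 0.43 to 0.73 (lost without Marf-mut replicates 1 and 3 and Cas9 replicates 1 and 2) in old Marf-mut, and -0.079 to 0.23 for srRNA in old Opa1-mut (negative without Opa1-mut replicate 2 or Cas9 replicate 1). In young Marf-mut srRNA ranged from 1.87 to 2.46 (lost without any Marf-mut replicate or Cas9 replicate 3) and lrRNA from -0.40 to 0.31 (positive without Marf-mut replicate 3 or Cas9 replicate 2). Between ages the ranges were -0.15 to 0.48 and -0.30 to 0.51 in Drp1-mut (negative without young replicate 3), -0.93 to -0.60 (lost without old replicate 2 and young replicates 1 and 2) and -2.64 to -1.12 (called without young replicate 2) in Opa1-mut, and -0.25 to 0.30 (positive) and 0.34 to 0.93 (called, both without young replicate 2) in Cas9. Among interactions, lrRNA in Drp1-mut ranged from -0.14 to 0.51 (negative without young Drp1-mut replicate 3 or young Cas9 replicate 2) and srRNA in Marf-mut from -1.87 to -1.29 (called without young Cas9 replicate 2). The suspension values of Drp1-mut ranged from -0.075 to 0.66 and from -0.091 to 1.57, negative without the old Drp1-mut suspension, those of Marf-mut from -0.56 to -0.20 and 0.57 to 2.12, those of Opa1-mut from -1.07 to -0.39 and 0.37 to 2.63, and those between ages from -0.42 to -0.059 and -0.98 to -0.028, all not called. The rRNA to mRNA ratio, near 0 in both fusion mutants, ranged from -0.083 to 0.090 in Marf-mut and from -0.093 to 0.065 in Opa1-mut, and between ages from -0.21 to -0.10, where it was called without young Cas9 replicate 1.

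Depth limits srRNA more than lrRNA: 96 UMIs in the smallest count against 14368. Each group is a single suspension, so genotype and suspension cannot be told apart within an age, and the suspension tests have few degrees of freedom. Where a library or suspension is left out, the rest of its genotype is taken to have the spread of the other groups.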
